A study of Homo sapiens with 18 samples.

Results

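The response to ATAD2 knockdown was followed across genes on the arrays labelled Hep3B, which were 6 of the 18 arrays of the study. They were chosen by their sample titles, 3 with an siRNA against ATAD2 and 3 with a control. The study profiled total RNA of 3 cell lines labelled as hepatocellular carcinoma lines, Hep3B, SNU449 and PLC (PLC/PRF/5), each grown in RPMI medium and transfected by means of the lipid reagent Lipofectamine RNAiMax. The treated cells received an siRNA that targets ATAD2 and the control cells a non-targeting siRNA, so that both groups of Hep3B-labelled cells had been transfected. The labels name the treated samples knockouts and the replicates biological, while the protocol describes a transient siRNA. Time after transfection, siRNA dose and the number of siRNAs were found in none of the sources used here. With only a treated and a control group under each label, loss of ATAD2 and other effects of the siRNA cannot be told apart. The words after knockdown name the treated arrays. The title of the series states its purpose, an evaluation of ATAD2 as a target in this cancer.

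ATAD2 is a nuclear protein that joins an AAA ATPase module to a bromodomain, the fold that binds acetylated lysines of histones. It is known as a coactivator of E2F and MYC dependent transcription, as a protein of replicating chromatin and as a gene often highly expressed in dividing tumour cells. E2F factors turn on the genes of DNA replication at the passage from the first growth phase to S phase, and their own activity is held down by the retinoblastoma protein RB1.

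The cells behind the Hep3B label did not carry the profile of a hepatocyte-like line. Over 31 hepatocyte genes, albumin and clotting factors among them, the median log2 signal was 4.93 to 5.11 for the control arrays and 4.96 to 4.99 on the ATAD2 siRNA arrays, against 9.49 to 9.60 on the control arrays labelled SNU449. The fibrinogen chain genes FGB and FGG went the other way, with bright signals on the Hep3B-labelled control arrays that are given below. Over 24 mesenchymal genes the median was 6.53 to 6.61 for the Hep3B-labelled control arrays and 6.14 to 6.66 for the siRNA arrays, against 4.67 to 4.74 on the SNU449 controls. RB1, which Hep3B cells are known to lack, gave 9.47, 9.44 and 9.51 on control arrays and 9.22, 9.15 and 9.37 after ATAD2 siRNA, against a mean of 4.44 on the SNU449 controls. Medians over 12 leukocyte and 11 endothelial genes stayed between 4.72 and 5.09 on all 6 arrays. Whether the cells under the Hep3B and SNU449 labels were exchanged was not tested, and these files hold nothing that settles it. The groups keep their labels here, so that Hep3B, SNU449 and PLC each stand for the arrays with that label and not for a line whose identity is known. The knockdown and its control are compared within each label.

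Across probe sets, the lowest Pearson's r within a Hep3B-labelled group was 0.9974 for the controls and 0.9947 for the siRNA arrays. The median SD of a gene was 0.0701 log2 units among the controls and 0.0931 among the siRNA arrays, where replicate 2 stood apart. Its signal at the 5' end of the beta-actin and GAPDH transcripts minus that at the 3' end, a common sign of RNA quality, was -0.42 log2 units, against -0.79 and -0.71 on the other siRNA arrays and -0.78 to -0.65 on the controls. A weight fitted to each array was 0.36 for siRNA replicate 2 and 1.02 to 1.69 for the other Hep3B-labelled arrays. List counts without this array, or without another one, are given where they moved by more than 1.5 times and by more than 1 gene, and other values where a call was lost without it.

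ATAD2 itself was lower on all 3 siRNA arrays at each of its 4 probe sets. The main probe set gave 8.94, 8.93 and 9.02 on control arrays and 5.15, 4.70 and 5.65 on the siRNA arrays. In limma it fell by 3.80 ± 0.16 (log2 ± SE, means of 3 arrays a group), 13.9-fold (adjusted p = 1.41e-10). Here and below the SE and p rest on a spread per gene that all 18 arrays share, unless another fit is named. The other probe sets fell by 3.50, 3.56 and 2.33, and no siRNA value reached a control value at any of them. ATAD2B, the closest relative of ATAD2, was chosen after its values were seen. It gave 6.48, 6.39 and 6.44 on control arrays and 6.72, 6.74 and 6.65 after knockdown, so that the groups did not overlap and the log2 difference was 0.27 ± 0.07 (limma, adjusted p = 0.0124). RNA was taken from whole cultures, in which fewer cells of a kind and less RNA per cell cannot be told apart.

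**Figure D1:**
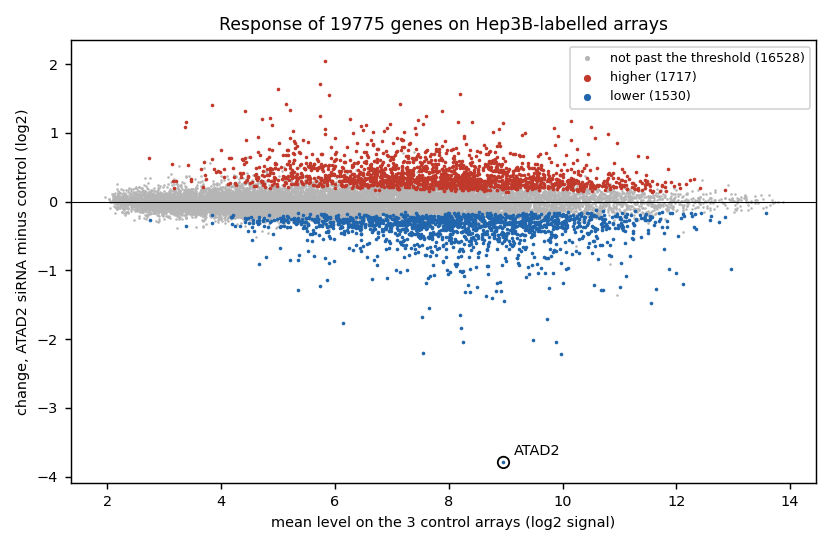
Each point is 1 of 19775 genes on the Hep3B-labelled arrays, with the mean log2 signal of the 3 control arrays on the x axis and the log2 difference, ATAD2 siRNA minus control, on the y axis. Red points are the 1717 genes that were higher and blue points the 1530 that were lower at an adjusted p under 0.05 in limma, and most lie within 0.5 log2 units of 0, with ATAD2 (-3.80) at the bottom.

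The response was broad and shallow. Of 19775 genes tested, 3247 (16.4%) passed an adjusted p of 0.05 in limma, 1717 higher (8.68%) and 1530 lower (7.74%). A change of 0.5 log2 units was reached by 369 rises and 317 falls, 1 log2 unit (a 2-fold change) by 40 rises and 57 falls, and 1.5 log2 units by 5 rises and 12 falls. The median absolute change of the called genes was 0.33 log2 units, or 1.26-fold, with quartiles of 0.26 and 0.47, while that of all genes tested was 0.10. Among the called genes 3187 had siRNA values that all lay on one side of the control values, a separation that 32.8% of all genes tested showed. The share of called genes rose with the signal, from 1.39% among the dimmest 3955 genes through 5.61%, 16.0% and 27.8% to 31.3% among the brightest 3955, and a list of bright genes has to be read against these shares.

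The called risers had a median difference from the control mean of 0.33, 0.36 and 0.34 on siRNA arrays 1, 2 and 3, and the called fallers one of -0.32, -0.36 and -0.32. These genes were called on the same arrays, so the closeness of the medians follows in part from the choice, and some of the gene lists below differed more between arrays, with mitotic genes at -0.07, -0.38 and -0.05. Without siRNA replicate 2, 2523 of the 3247 genes were still called in the same direction. With each of the 6 arrays left out in turn, 1944 were, of which 1081 rose and 863 fell. Of 2247 called genes with further probe sets, 777 (34.6%) had at least 1 other probe set called the same way and 45 (2%) one called the opposite way, and 1000 called genes had a single probe set. The size of a change therefore depended on the probe set. Of the 201 called genes with further probe sets that the naming rule covers, 104 had a change smaller by more than 1.5 times, or of the other sign, when all probe sets were averaged, and where that ended the call of a gene named below it is said beside it.

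The split between rises and falls depended on how the arrays were scaled. Risers were 52.9% of the called genes after quantile normalization over all arrays and 53.8% (1616 higher, 1385 lower) after quantile normalization within each line. They were 64.2% (2088 and 1166) on the deposited values and 75.1% (2496 and 828) with each array centred on its median. The median change of these brightest genes was 0.01, 0.01, 0.06 and 0.10 under these scalings in that order. Small falls of bright genes and counts of list members therefore moved with the scaling, and the counts on deposited and on centred values are given where they differ by more than 1.5 times and by more than 1 gene.

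Among the genes with a second probe set called the same way, the largest rise was that of DSC2. This gene, which encodes a desmosomal cadherin, gave 8.21, 8.18 and 8.20 on control arrays and 9.68, 9.96 and 9.65 after knockdown. Every siRNA value lay well above every control value, a rise in limma of 1.57 ± 0.07 (log2 ± SE, means of 3 arrays a group) or 2.96-fold (adjusted p = 6.34e-10). All 3 other probe sets rose as well. The urea transporter gene SLC14A1 went from 3.94, 3.79 and 3.76 to 5.36, 5.07 and 5.28. STX6, a SNARE gene of the trans-Golgi network and endosomes, went from 7.60, 7.63 and 7.59 to 8.73, 8.97 and 8.86, a rise of 1.25 ± 0.06 (adjusted p = 8.84e-10 in limma). In both genes the groups were apart by more than the spread among arrays. PLPP3, whose product breaks down lysophosphatidic acid, read 6.42, 6.16 and 6.22 on the controls and 7.50, 7.55 and 7.34 on the siRNA arrays. The interleukin-6 receptor gene IL6R read 7.37, 7.51 and 7.47 against 8.55, 8.77 and 8.61. STC1, the gene of the secreted hormone stanniocalcin, read 10.21, 10.15 and 10.07 against 11.47, 11.16 and 11.32. These 3 genes rose by 1.20, 1.19 and 1.17 with no overlap between the groups. Further rises with a second probe set were those of NHLRC3 (1.25), IL1RAPL1 (1.20), DESI2 (1.16), the GABA transaminase gene ABAT (1.16), ENDOD1 (1.15) and EPG5 (1.12), which acts in the fusion of autophagosomes with lysosomes. IL1RAPL1 was uneven, at 6.26 and 6.27 on siRNA arrays 1 and 3 and 5.25 on siRNA array 2, against 4.60 to 4.84 on the controls.

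Among the falls with a second probe set, that of HIKESHI was the largest after ATAD2. HIKESHI, the nuclear import carrier of heat shock protein 70, gave 9.76, 9.67 and 9.76 on control arrays and 8.10, 7.90 and 8.07 on the siRNA arrays. It fell by 1.71 ± 0.06 or 3.26-fold (limma, adjusted p = 5.14e-11), with tight and separate groups. PAK6, a p21-activated kinase gene, went from 8.28, 8.43 and 8.40 to 7.01, 7.04 and 7.10, and IGFBP5, which encodes a binding protein of insulin-like growth factors, from 10.64, 10.76 and 10.70 to 9.47, 9.65 and 9.15. All 5 other probe sets of IGFBP5 fell too. OSTM1, the gene of a lysosomal membrane protein, went from 8.87, 8.93 and 8.96 to 7.50, 7.94 and 7.43, and VAV3 from 10.63, 10.67 and 10.71 to 9.24, 9.75 and 9.19. In both the smallest fall was on siRNA array 2. KLHL28 fell by 1.55, WDR72 by 1.37 and SMIM14 by 1.24. ASPH, which makes several proteins from a shared gene, went apart by probe set. Its main probe set and 1 other fell by 1.24 and 1.32, whereas 4 others rose by 0.63 to 0.84, so that the gene has no single direction.

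Below these, the genes ranked 11 to 20 by size included several with no second probe set. The serine protease-like gene PRSS35 rose by 1.31, from 4.33 to 4.49 on the controls to 5.60 to 5.99, and LINC00973 by 1.21. SPIN4 fell by 1.45, from 8.85 to 9.04 to 7.35 to 7.73, and AVL9 by 1.40. The calcium channel subunit gene CACNA2D3 fell by 1.29, and IAPP, the islet amyloid polypeptide gene, read 8.83, 8.84 and 8.81 on the controls and 7.86, 6.92 and 7.80 after knockdown. IAPP was thus lowest on siRNA array 2.

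**Figure D2:**
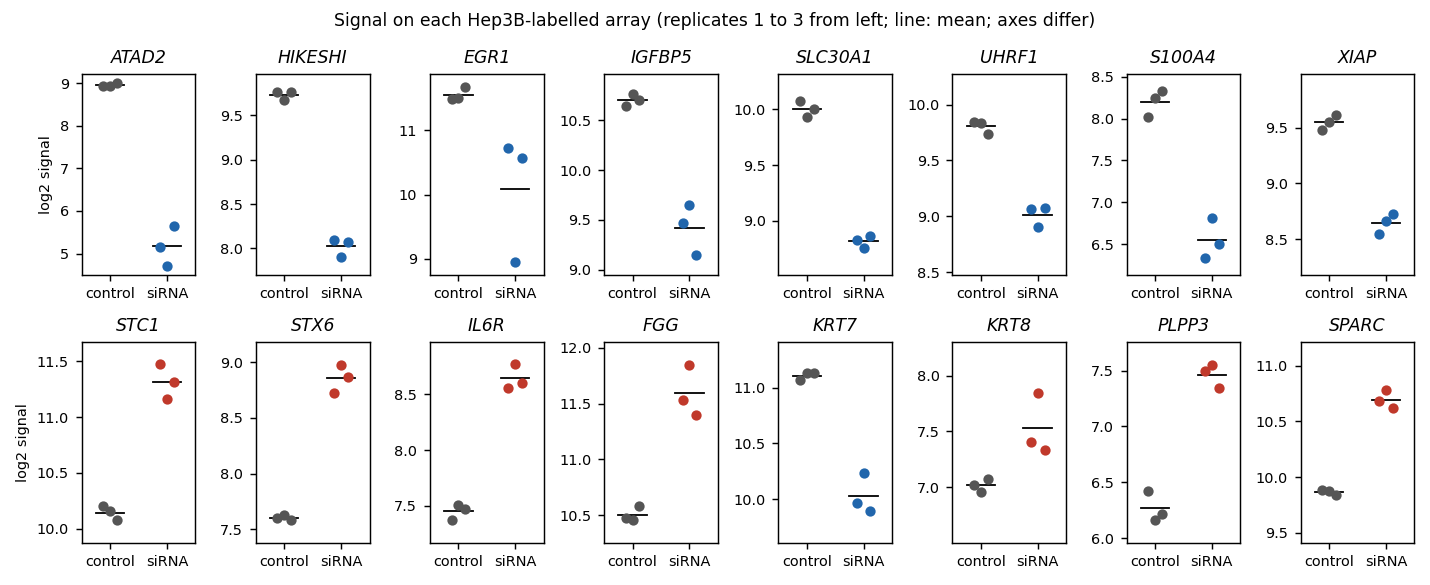
Log2 signal (y axis, a separate range for each gene) of 16 genes on each Hep3B-labelled array, control arrays in grey and ATAD2 siRNA arrays in blue for lower and red for higher genes, replicates 1 to 3 from the left, with a line at each mean of 3. The groups do not overlap for any gene shown, and EGR1 (8.95) and KRT8 (7.84) have an siRNA array 2 far from the other siRNA arrays.

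Genes of DNA replication under E2F control were lower together. Of 63 measured, 39 fell and 0 rose (limma; 1 rose at an unadjusted p under 0.05), 57 had a change below 0, and the list's median log2 change was -0.25, against -0.02 over all genes tested. The count was 23 on the deposited values and 15 with centred arrays, when 1 member rose. It was 30 to 39 with any 1 array left out, and the median over its members was -0.25, -0.39 and -0.20 for the 3 siRNA arrays. UHRF1, which brings DNA methylation to newly copied DNA, gave 9.84, 9.84 and 9.73 on control arrays and 9.06, 8.91 and 9.07 after knockdown, a fall of 0.79 ± 0.08 or 1.73-fold (limma, adjusted p = 4.46e-06). WDHD1, which ties the replicative helicase to DNA polymerase alpha, went from 8.03, 8.14 and 8.08 to 7.63, 7.21 and 7.65, and the uracil glycosylase gene UNG from 8.40, 8.37 and 8.29 to 7.82, 7.66 and 7.85. CDCA7, a chromatin gene induced in S phase, went from 10.21, 10.29 and 10.35 to 9.65, 9.69 and 9.89, and E2F2 from 7.39, 7.38 and 7.34 to 6.88, 6.86 and 6.95. For all 5 genes every siRNA array lay under every control array, although none changed by 1 log2 unit.

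The replicative helicase was chosen after its values were seen. Of its 6 subunit genes, 5 fell, MCM2 by 0.39, MCM4 by 0.32, MCM5 by 0.28, MCM6 by 0.26 and MCM3 by 0.24, while MCM7 did not pass at a difference of -0.21 (limma, adjusted p = 0.122). MCM2 read 8.83, 8.82 and 8.84 on the controls and 8.43, 8.40 and 8.47 after knockdown. PCNA, the sliding clamp gene, read 11.73, 11.78 and 11.76 against 11.37, 11.26 and 11.51. In both genes the groups were separate.

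The promoters of 3 of the fallen replication genes are shown because each holds letters that E2F proteins are known to bind, and they had the largest falls among such members. They run from 250 bases before to 50 bases after the start of the gene in the RefSeq annotation of GRCh38.p14, on the gene's own strand, and capitals mark the match to one of the searched strings on either strand. UHRF1 is at chr19:4909251-4909550 on the plus strand, CDCA7 at chr2:173354622-173354921 on the plus strand and E2F2 at chr1:23531184-23531483 on the minus strand. The first matched base lies at -14, -65 and -42 from the start, in that order.
UHRF1: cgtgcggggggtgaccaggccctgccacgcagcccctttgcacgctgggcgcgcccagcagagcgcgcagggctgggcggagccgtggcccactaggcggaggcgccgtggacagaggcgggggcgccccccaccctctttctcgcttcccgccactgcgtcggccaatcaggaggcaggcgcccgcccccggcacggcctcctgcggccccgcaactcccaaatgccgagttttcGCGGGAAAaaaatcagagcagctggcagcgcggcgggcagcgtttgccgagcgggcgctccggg
CDCA7: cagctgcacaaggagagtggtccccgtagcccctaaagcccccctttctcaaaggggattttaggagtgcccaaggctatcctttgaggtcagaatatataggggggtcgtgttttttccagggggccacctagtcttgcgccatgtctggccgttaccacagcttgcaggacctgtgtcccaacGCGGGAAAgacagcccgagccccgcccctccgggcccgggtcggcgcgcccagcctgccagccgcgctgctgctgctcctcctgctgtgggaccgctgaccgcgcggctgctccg
E2F2: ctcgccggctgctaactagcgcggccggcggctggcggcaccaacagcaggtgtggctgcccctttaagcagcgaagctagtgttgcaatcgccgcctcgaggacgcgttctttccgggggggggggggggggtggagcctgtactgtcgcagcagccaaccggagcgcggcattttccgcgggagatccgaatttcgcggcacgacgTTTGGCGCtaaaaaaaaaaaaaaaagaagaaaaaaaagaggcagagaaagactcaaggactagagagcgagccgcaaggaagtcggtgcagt
The strings searched were TTTCCCGC, TTTGGCGC, TTTCGCGC and TTTGCCGC with their reverse complements. A match was present in 26 of the 54 promoters of the replication list (48.1%) and in 19 of the 36 of its members that fell. It was present in 4.36% of the 15384 promoters of all genes tested and in 3.33% of 27305 promoters in the table. Over the whole response a match was found in 8.03% of the 1271 promoters of genes that fell and in 3.52% of the 1421 of genes that rose. A match is a description of these letters in this window, and the list was itself drawn up from genes known as E2F targets.

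Recombination and centromere genes shared the fall in part. Of 30 homologous recombination and Fanconi genes, 9 fell and 1 rose in limma, with 5 and 1 on the deposited values and 4 and 1 on centred arrays. RMI2 and RMI1, partners of the BLM helicase in dissolving recombination intermediates, fell by 0.64 and 0.51, and BLM itself by 0.38. RMI2 read 7.56, 7.60 and 7.43 on the controls and 6.90, 6.86 and 6.92 after knockdown, and the groups did not overlap. FANCF was the member that rose, by 0.47. Of 37 cohesin, condensin and centromere genes, 10 fell and 3 rose. CDCA5, the cohesin protector sororin, went from 8.51, 8.55 and 8.50 to 7.86, 7.61 and 7.88, a fall of 0.74 ± 0.07 (limma, adjusted p = 1.29e-06). CENPH fell by 0.54 and the cohesin subunit gene RAD21 by 0.41. Without siRNA replicate 3 this list had 15 falls, and on centred arrays it had 6. Of 42 replication-dependent histone genes, most of them dim on these arrays, 6 fell and 0 rose (limma; 2 rose at an unadjusted p under 0.05), with H3C3 at 5.47 to 5.57 on the controls and 5.06 to 5.12 after knockdown. There were 3 histone falls without control replicate 2 or siRNA replicate 3, and 4 falls with 2 rises without control replicate 1.

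The fall of mitotic genes depended on siRNA array 2. Of 58 mitotic kinase and spindle genes, 15 fell and 2 rose (limma), with 6 lower and 3 higher on centred arrays. The median over members was -0.07, -0.38 and -0.05 for siRNA arrays 1, 2 and 3, so that array 2, the array with the different 5' to 3' signal, was far below the others. Without it the median moved from -0.13 to -0.06, with 11 members lower and 5 higher. Letters of the cell cycle homology region that mark promoters of this class, TTTGAA on either strand, were in 33 of its 50 promoters (66.0%) and in 12 of the 14 of members that fell, against 11.9% of the promoters of all genes tested. Over the whole response they were in 11.3% of the promoters of genes that fell and in 9.57% of those of genes that rose. DLGAP5, a spindle protein gene, read 10.64, 10.69 and 10.65 on the controls and 10.21, 9.64 and 10.23 after knockdown, a fall of 0.63 ± 0.12 (adjusted p = 0.00101 in limma). HMMR fell by 0.52 and the kinesin gene KIF18A by 0.47. TOP2A, the topoisomerase gene of dividing cells, gave -0.43 ± 0.12, and its call was lost without control replicate 1 (limma, adjusted p = 0.0640) or siRNA replicate 2 (adjusted p = 0.0730), on centred arrays (0.0697) and as the mean of its probe sets (0.0716). MKI67, which encodes the proliferation marker Ki-67 and was chosen after its values were seen, was among the 2 that rose, with 8.69, 8.46 and 8.37 against 9.02, 8.70 and 9.08.

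In the machinery that governs entry to the cycle, changes went both ways. Of 29 cyclin, CDK, CDK inhibitor and quiescence genes, 6 fell and 3 rose, with 4 and 5 on centred arrays. Cyclin D1 (CCND1), which with CDK6 relieves the block by RB1, read 8.94, 8.93 and 8.93 on the controls and 7.91, 8.05 and 8.09 after knockdown, a fall of 0.92 ± 0.06 or 1.89-fold (limma, adjusted p = 6.12e-08). CDK6 fell by 0.66, at 10.43 to 10.47 on the controls and 9.57 to 9.99 after knockdown, and 3 of its 6 other probe sets fell too. RBL1, the RB1 relative p107, fell by 0.62, while cyclin D3 (CCND3) rose by 0.49, or by 0.18 as the mean of its probe sets, which did not pass (limma, adjusted p = 0.239). The pluripotency and differentiation factor gene KLF4 rose from 7.04, 6.93 and 6.93 to 8.09, 8.001 and 8.18, or 2.18-fold, with wide separation. Of 26 p53 target genes 4 fell and 3 rose, with GDF15 lower by 0.55, MDM2 by 0.50 and TP53INP1 by 0.48, and TNFRSF10B and RRM2B each higher by 0.34. As means of all probe sets GDF15 gave -0.13 and TP53INP1 -0.26, and neither passed (limma, adjusted p = 0.216 and 0.0762). GDF15 also lost its call when the Hep3B-labelled arrays were fitted by themselves (adjusted p = 0.0514 in limma).

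Immediate early genes, which answer growth factors and stress within minutes, were called lower more often than higher. Of 27 measured, 12 fell and 1 rose, KLF4, and 24 had a change below 0 (limma). The count was 13 lower on the deposited values and 12 on centred arrays. The median over members was -0.17, -0.65 and -0.17 for siRNA arrays 1, 2 and 3, and without siRNA replicate 2 it was -0.16 in place of -0.24, with 11 lower and 2 higher. The transcription factor gene EGR1 read 11.49, 11.50 and 11.68 on control arrays and 10.73, 8.95 and 10.57 after knockdown. ATF3, a stress-induced repressor gene, read 8.23, 8.26 and 8.39 against 7.35, 6.27 and 7.30, and the phosphatase gene DUSP1, which switches off MAP kinases, read 12.11, 12.12 and 12.15 against 11.31, 10.24 and 11.25. In these genes all siRNA arrays lay under all controls and array 2 was the lowest. Their falls were 1.48 ± 0.29, 1.32 ± 0.19 and 1.19 ± 0.19 (limma, adjusted p = 0.00176, 0.000108 and 0.000245). FOS read 8.37, 7.59 and 8.68 against 7.58, 4.34 and 7.22, and its call was lost without control replicate 1 (limma, adjusted p = 0.0821) or 3 (adjusted p = 0.116), with an intensity trend and a robust prior (0.0597) and with the Hep3B-labelled arrays fitted by themselves (0.141). The direction of the list thus held on each siRNA array, and its size did not.

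Feedback genes and growth factors of the MAP kinase pathway moved in both directions, with 4 of 23 higher and 3 lower. The EGF family ligand epiregulin (EREG) read 9.85, 9.96 and 9.95 on the controls and 10.83, 10.83 and 10.93 after knockdown, a rise of 0.95 ± 0.08 (limma, adjusted p = 6.8e-07). The feedback inhibitor gene SPRY1 rose by 0.90. Another EGF family ligand, HBEGF, fell by 0.50, and the receptor kinase gene EPHA2 by 0.55. Without control replicate 2 or siRNA replicate 1 the list had 2 members called in each direction, without siRNA replicate 3 it had 2 higher and 3 lower, and without siRNA replicate 2 it had 6 higher and 2 lower.

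Of 34 TGF-beta pathway and target genes, 9 fell and 3 rose, with 6 and 5 on centred arrays. Both receptor genes named here rose and both inhibitory SMAD genes fell. The type II receptor gene TGFBR2 read 10.99, 10.93 and 10.93 on the controls and 11.74, 12.03 and 11.65 on the siRNA arrays, a rise of 0.85 ± 0.08 (limma, adjusted p = 2.46e-06), and the co-receptor gene TGFBR3 rose by 0.68. SMAD6, an inhibitor of BMP signalling, read 7.91, 7.95 and 7.98 against 7.10, 7.17 and 7.14, and SMAD7, which blocks the TGF-beta receptor, fell by 0.53. LTBP3, whose product holds the latent ligand in the matrix, fell by 0.52. In each of these 5 genes the groups were separate. Targets of YAP and TEAD were split, 6 higher and 6 lower of 30, with 3 higher without control replicate 2, siRNA replicate 1 or siRNA replicate 3. NT5E, the ecto-5'-nucleotidase CD73, rose by 0.995 with all 3 of its other probe sets, while GADD45B fell by 0.99, AJUBA by 0.65 and AMOTL2 by 0.60. Of 33 Wnt pathway genes 5 fell and 2 rose, with the receptor gene FZD3 lower by 0.80, the secreted inhibitor gene DKK1 lower by 0.53 and the receptor gene FZD5 higher by 0.46. DKK1 lost its call with the Hep3B-labelled arrays fitted by themselves (limma, adjusted p = 0.0551). Without control replicate 1 or 3 or siRNA replicate 3, 3 Wnt genes were lower and 1 was higher, without siRNA replicate 1 there were 3 in each direction, and on the deposited values and on centred arrays 3 were lower and 5 higher. Of 31 Notch pathway genes, 3 rose and 3 fell, among them the coactivator gene MAML3 (0.60), the receptor gene NOTCH1 (-0.37) and the glycosyltransferase gene LFNG (-0.62), with 5 falls without siRNA replicate 1 and 5 rises on centred arrays.

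**Figure D3:**
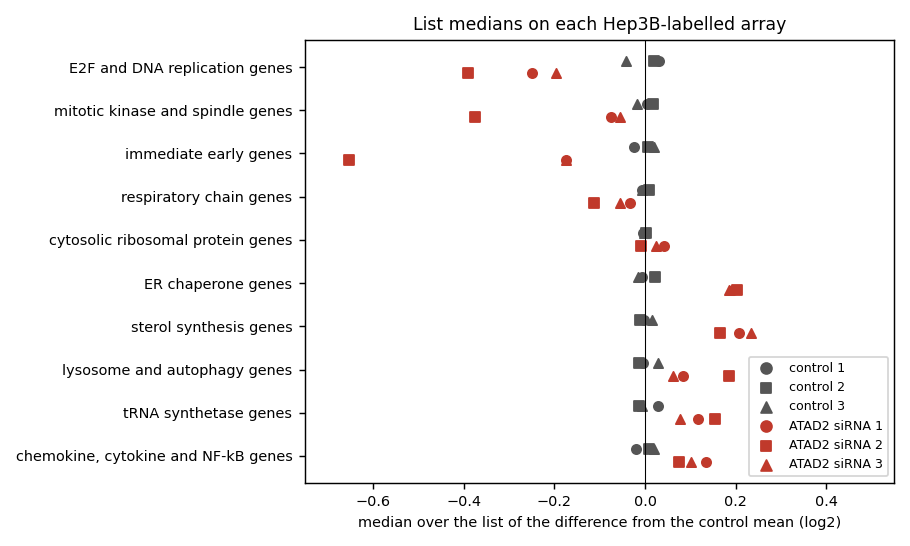
Median over each of 10 gene lists of the log2 difference between an array and the mean of the 3 control arrays (x axis), one symbol per Hep3B-labelled array, control arrays in grey and ATAD2 siRNA arrays in red. The replication list lies between -0.39 and -0.20 on all siRNA arrays, and mitotic and immediate early genes are lowest on siRNA array 2 (-0.38 and -0.65).

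Genes of the secretory pathway rose more often than they fell. Of 29 genes of chaperones and folding in the endoplasmic reticulum, 14 rose and 4 fell, with a list median of 0.17, and 0.19, 0.20 and 0.18 on the 3 siRNA arrays. The rises numbered 16 on the deposited values and 17 on centred arrays (with 1 fall), 8 without control replicate 1, 9 without control replicate 3 and 9 without siRNA replicate 2. The largest rises were not those of folding chaperones. SEC24D, a coat subunit of vesicles that leave the endoplasmic reticulum, read 7.11, 7.32 and 7.31 on the controls and 7.88, 7.79 and 8.06 after knockdown, a rise of 0.67 ± 0.12 (limma, adjusted p = 0.000764). ERN1, the stress sensor kinase IRE1, rose by 0.55, and HERPUD1, which serves the disposal of misfolded proteins, by 0.37, or by 0.12 as the mean of its probe sets, which did not pass (limma, adjusted p = 0.143). CANX, the glycoprotein chaperone calnexin, went the other way, from 11.60, 11.63 and 11.59 to 11.21, 11.39 and 11.20. HSPA5, the main chaperone BiP, was chosen after its values were seen and rose by 0.25, from 12.14 to 12.22 on the controls to 12.40 to 12.46.

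Of the Golgi and vesicle transport genes, 14 of 61 rose and 3 fell (limma), with 18 and 2 on the deposited values. The called share was 27.9% at a median control signal of 8.63, against 31.3% of the brightest 3955 genes. SEC24A, another coat subunit, read 8.13, 8.15 and 8.21 on the controls and 8.84, 8.87 and 8.91 after knockdown, a rise of 0.71 ± 0.07 (limma, adjusted p = 3.99e-06) with both other probe sets. The Golgi tether and matrix genes GOLIM4, GOLGA3 and GCC2 rose by 0.57, 0.46 and 0.41, the last with a mean of its probe sets of 0.22 that did not pass (limma, adjusted p = 0.0939). TMF1, a Golgi factor, was discordant, since its main probe set read 9.57, 9.45 and 9.40 against 7.43, 7.47 and 7.49 and fell by 2.01, while another probe set rose by 0.32 and the mean of all of them was -0.11 (limma, adjusted p = 0.482). Of 57 RAB genes, small GTPases that direct vesicles, 13 rose and 3 fell, a called share of 28.1% at a median control signal of 8.03. Of the 3955 genes with a mean signal of 6.86 to 8.44, 27.8% were called. RAB27B, which directs the release of secretory vesicles, rose by 0.75, RAB3B by 0.65, RAB27A by 0.47 and RAB29 by 0.42, while RAB30 fell by 0.49. On centred arrays 17 rose and 1 fell, and RAB30 lost its call (limma, adjusted p = 0.0525).

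Lysosome and autophagy genes also rose more often than they fell, 11 against 2 of 48, with 16 and 0 on centred arrays. The called share was 27.1% at a median control signal of 9.05, against 31.3% of the brightest 3955 genes. There were 10 rises and 0 falls on the deposited values and without control replicate 3, 12 and 0 without siRNA replicate 3, and 8 and 0 without control replicate 2 (limma, where the full set of arrays gave 4 falls at an unadjusted p under 0.05). The cholesterol exporter gene NPC1 read 9.42, 9.22 and 9.23 on the controls and 9.85, 9.86 and 9.85 after knockdown, a rise of 0.56 ± 0.06 or 1.48-fold (limma, adjusted p = 1.22e-05). TFEB, the transcription factor that drives lysosomal genes, read 5.55, 5.61 and 5.72 against 6.08, 6.33 and 6.10. The acid lipase gene LIPA and the protease gene CTSL each rose by 0.48, as did the proton pump subunit gene ATP6V1H. As means of all probe sets LIPA gave 0.28 and ATP6V1H 0.13, and neither passed (limma, adjusted p = 0.110 and 0.140). In each of these 5 genes the siRNA values of the main probe set lay above all controls.

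Amino acid handling was mixed. Of 31 ATF4 and amino acid response genes, 10 rose and 6 fell, and ATF3 led the falls. MTHFD2, a mitochondrial folate enzyme gene, read 9.29, 9.35 and 9.28 on the controls and 8.74, 8.41 and 8.79 after knockdown, a fall of 0.66 ± 0.08 (limma, adjusted p = 2.1e-05). The large amino acid transporter gene SLC7A5 fell by 0.61 and the serine synthesis gene PSPH by 0.58, or by 0.22 as the mean of its probe sets (limma, adjusted p = 0.0720), while VLDLR rose by 0.49. Of 17 cytosolic tRNA synthetase genes 5 rose and 0 fell (limma, and 0 fell at an unadjusted p under 0.05), with 14 members above 0. CARS1 rose by 0.44, VARS1 by 0.40 and HARS1 by 0.32, although the mean of the VARS1 probe sets, 0.17, did not pass (limma, adjusted p = 0.142). The count was 3 without control replicate 1 or 3 or siRNA replicate 2 and 8 on centred arrays. Of 22 heat shock genes 4 rose and 1 fell, with HSPA4L higher by 0.36 and the HSP40 gene DNAJB1 by 0.33, and the co-chaperone gene BAG3 lower by 0.21, a call that was lost on the deposited values (limma, adjusted p = 0.052) and on centred arrays (adjusted p = 0.18).

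**Figure D4:**
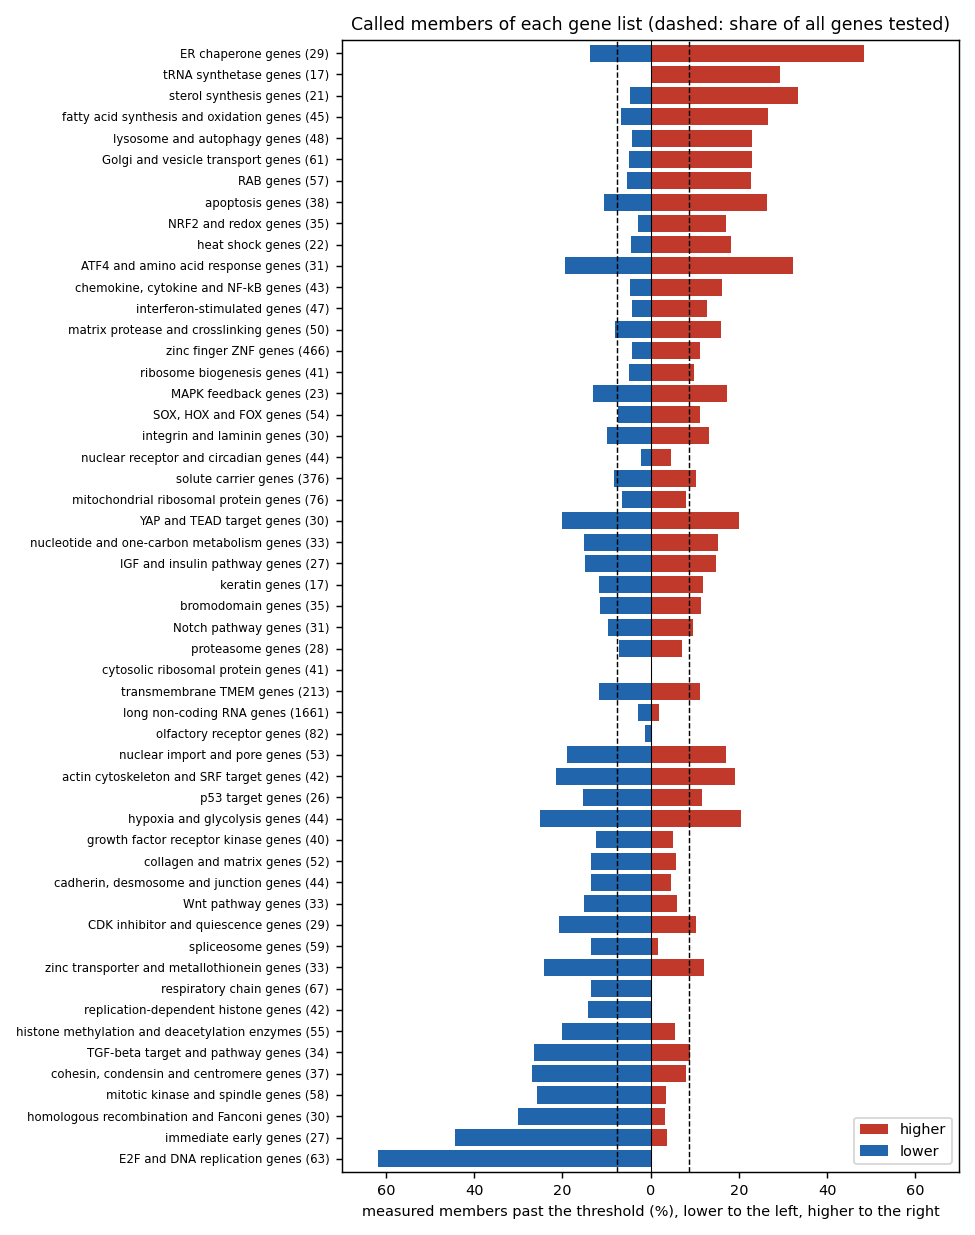
Percent of the measured members of each gene list (number in brackets) that passed an adjusted p of 0.05 in limma on the Hep3B-labelled arrays, lower to the left in blue and higher to the right in red, with dashed lines at the shares of all genes tested, 7.74% lower and 8.68% higher. The replication list reaches 61.9% lower and the endoplasmic reticulum list is the longest bar on the right, while cytosolic ribosomal protein genes have no bar.

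The lipid genes that were called mostly rose. Of 21 sterol synthesis genes 7 rose and 1 fell, with 9 and 1 on the deposited values. HMGCS1, which makes the precursor of mevalonate, read 7.95, 7.89 and 8.03 on the controls and 8.77, 8.42 and 8.81 after knockdown, a rise of 0.71 ± 0.10 (limma, adjusted p = 0.000115). The desaturase gene SC5D read 8.78, 8.81 and 8.72 against 9.45, 9.12 and 9.55, and INSIG1, a brake on sterol synthesis that is itself induced when sterols are low, read 9.32, 9.39 and 9.47 against 9.997, 9.74 and 9.998. In all 3 genes array 2 was the lowest siRNA array and still above the controls. DHCR7 rose by 0.39 and SQLE, the squalene epoxidase gene, by 0.37. Fatty acid metabolism was represented by 45 genes, with 12 rises and 3 falls. The nuclear receptor genes PPARA and PPARG rose by 0.55 and 0.44, the elongase genes ELOVL6 and ELOVL7 by 0.48 and 0.35, and CPT2, of the mitochondrial import of fatty acids, by 0.42. There were 8 rises in this list without siRNA replicate 3, and 15 rises with 1 fall on the deposited values or 0 falls on centred arrays. Of its 45 members 30 were not called.

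Hypoxia and glycolysis genes were called in both directions, 9 higher and 11 lower of 44. The called share was 45.5% at a median control signal of 9.48. Of the brightest 3955 genes 31.3% were called, 17.3% higher and 14% lower. VEGFA, the angiogenic factor gene, read 9.998, 10.09 and 10.11 on the controls and 8.95, 9.24 and 9.05 after knockdown, a fall of 0.99 ± 0.07 or 1.98-fold (limma, adjusted p = 9.88e-08), and all 3 other probe sets fell. The vasodilator peptide gene ADM went from 11.79, 11.78 and 11.77 to 11.14, 10.995 and 11.12. The glucose transporter gene SLC2A1 fell by 0.53, while STC1 rose by 1.17 and the collagen crosslinking gene LOX by 0.60. Of 35 NRF2 and redox genes, 6 rose and 1 fell. Heme oxygenase (HMOX1) read 8.76, 8.77 and 8.66 against 8.98, 9.64 and 9.08, with siRNA array 2 far above the others, and lost its call with the Hep3B-labelled arrays fitted by themselves (limma, adjusted p = 0.0617). GCLM rose by 0.38 and the malic enzyme gene ME1 fell by 0.37. The list median was 0.06, 0.18 and -0.02 on the 3 siRNA arrays, and without siRNA replicate 2 it moved from 0.08 to 0.01, with 6 rises and 3 falls. Without siRNA replicate 3 the rises were 10. Of 33 nucleotide and one-carbon genes 5 rose and 5 fell, with the spermidine synthase gene SRM higher by 0.56 and the purine synthesis gene PAICS lower by 0.31, at 11.22 to 11.26 on the controls and 10.92 to 10.93 on the siRNA arrays. The split in this list was 8 higher and 3 lower on the deposited values, 10 and 2 on centred arrays, 3 and 3 without siRNA replicate 3, 4 and 3 without siRNA replicate 1 and 3 and 4 without control replicate 2 or 3.

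Zinc transport held some of the largest falls. Of 33 zinc transporter and metallothionein genes, 8 fell and 4 rose, with 5 and 4 on the deposited values and 4 and 4 on centred arrays. SLC39A10, a zinc importer gene with a single probe set, read 9.85, 9.88 and 9.92 on the controls and 7.89, 7.78 and 7.86 after knockdown, a fall of 2.04 ± 0.07 or 4.12-fold (limma, adjusted p = 9.77e-12). The exporter gene SLC30A1 read 9.93 to 10.07 on the controls and 8.83, 8.76 and 8.86 after knockdown, and SLC30A6, of the Golgi, read 7.63, 7.59 and 7.61 against 6.38, 6.57 and 6.32. Each of these 3 genes lost more than 1 log2 unit with no overlap. MTF1, the zinc sensing transcription factor gene, rose by 0.61, and the importer gene SLC39A14 fell by 0.52. SLC39A14 lost its call as the mean of its probe sets, -0.21 (limma, adjusted p = 0.129), and with the Hep3B-labelled arrays fitted by themselves (adjusted p = 0.0515).

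Matrix and adhesion genes held large single changes in both directions. Of 52 collagen and matrix genes, 7 fell and 3 rose, with 9 and 6 on centred arrays and 9 and 5 without siRNA replicate 2. Fibulin-1 (FBLN1) read 7.78, 7.76 and 7.66 on the controls and 6.78, 6.51 and 6.71 after knockdown, a fall of 1.07 ± 0.07 (limma, adjusted p = 2.17e-08). Thrombospondin-1 (THBS1) read 11.81, 11.88 and 11.91 against 10.82, 10.81 and 11.01, and all 6 of its other probe sets fell. SPARC, a collagen binding glycoprotein gene, moved the other way, from 9.88, 9.88 and 9.84 to 10.68, 10.78 and 10.62. COL18A1 fell by 0.74 and COL11A1 by 0.67. Of 50 matrix protease and crosslinking genes 8 rose and 4 fell, with the procollagen protease gene ADAMTS3 higher by 2.05, the plasminogen activator gene PLAT by 0.65 and PCOLCE2 by 0.57, and ADAMTS1 lower by 0.49, and 2 fell without control replicate 2 or siRNA replicate 3. Of 30 integrin and laminin genes, 4 rose and 3 fell, with the collagen receptor subunit ITGA2 higher by 0.75, ITGB4, the integrin subunit of hemidesmosomes, lower by 0.69 and ITGA3 lower by 0.42.

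Genes of cell junctions and of the cytoskeleton included some with very little spread. Claudin-1 (CLDN1), a tight junction gene, read 10.57, 10.58 and 10.57 on the controls and 11.49, 11.49 and 11.50 after knockdown, a rise of 0.92 ± 0.05 (limma, adjusted p = 1.19e-09). Of 44 cadherin, desmosome and junction genes, DSC2 and CLDN1 were the 2 that rose, and 6 fell, FAT3 by 0.75. The falls numbered 2 without control replicate 1 or 3 and 3 without control replicate 2 or on centred arrays, where 4 rose. Among keratins 2 rose and 2 fell. KRT7 read 11.06, 11.13 and 11.13 on the controls and 9.97, 10.23 and 9.89 after knockdown, a fall of 1.08 ± 0.09 (limma, adjusted p = 3.88e-07), and KRT80 fell by 0.80. KRT18 rose by 0.38, and its partner KRT8 read 7.02, 6.96 and 7.07 against 7.40, 7.84 and 7.33, a call that was lost without control replicate 2 (limma, adjusted p = 0.0568) or siRNA replicate 2 (adjusted p = 0.0760). None of the other 13 keratin genes passed. The ERM linkers of membrane and actin split, with radixin (RDX) and ezrin (EZR) lower by 0.45 and 0.43 and moesin (MSN) higher by 0.43. RDX read 10.43, 10.43 and 10.44 on the controls and 9.97, 9.97 and 9.998 after knockdown, though none of its 3 other probe sets passed and the mean of all of them was -0.17 (limma, adjusted p = 0.138). The smooth muscle genes CNN1 and CALD1 rose by 0.69 and 0.53. In all, 8 of 42 actin and SRF target genes rose and 9 fell, with 6 and 5 when any 1 control array was left out, 9 and 5 on the deposited values and 9 and 3 on centred arrays.

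Growth factor and survival genes showed a few clear members. Of 27 IGF and insulin pathway genes 4 rose and 4 fell, led by IGFBP5, with the kinase subunit gene PIK3R3 higher by 0.73, at 7.04 to 7.14 on the controls and 7.74 to 7.89 after knockdown, and IGFBP3 lower by 0.64. Without siRNA replicate 2 there were 2 rises and 5 falls, and on centred arrays 6 rises and 2 falls. Of 40 receptor kinase genes 5 fell and 2 rose, with FGFR4 lower by 0.50 and TYRO3 higher by 0.36, or by 0.17 as the mean of its probe sets (limma, adjusted p = 0.0521). In this list 9 fell and 3 rose without siRNA replicate 2, and 4 fell and 4 rose on centred arrays. Of 38 apoptosis genes, 10 rose and 4 fell. The BH3-only gene PMAIP1 (NOXA) read 7.82, 7.45 and 7.66 on the controls and 6.67, 6.27 and 6.65 after knockdown, a fall of 1.11 ± 0.13 (limma, adjusted p = 1.35e-05). The caspase inhibitor gene XIAP read 9.48, 9.55 and 9.61 against 8.55, 8.67 and 8.73, a fall of 0.90 shared by 4 of its 6 other probe sets. In PMAIP1 and XIAP every siRNA value lay under every control value. The death receptor gene TNFRSF1A rose by 0.59 and CASP8 by 0.35.

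Other chromatin genes moved in both directions. Of 35 bromodomain genes other than ATAD2, 4 rose and 4 fell, with 2 falls without control replicate 1 or 2, on the deposited values and on centred arrays. PBRM1, a subunit of the PBAF remodeller, read 8.29, 8.32 and 8.45 on the controls and 7.36, 7.74 and 7.55 after knockdown, a fall of 0.81 ± 0.09 (limma, adjusted p = 1.53e-05). ZMYND8 rose by 0.67 with 3 of its 4 other probe sets, BRWD3 by 0.53 and BRWD1 by 0.41. The mean of the BRWD1 probe sets, 0.17, did not pass (limma, adjusted p = 0.0942). Of 55 histone methylation and deacetylation enzymes, 11 fell and 3 rose, with 7 and 5 on the deposited values and 3 and 5 on centred arrays, so that the direction of this list depended on the scaling. The methyltransferase gene SETD7 rose by 0.75 and the deacetylase gene HDAC9 by 0.72, while KMT2E fell by 0.61 and SIRT1 by 0.42. As the mean of its probe sets HDAC9 gave 0.10 and did not pass (limma, adjusted p = 0.432).

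Housekeeping lists differed in their share of calls. It was 14.5% for mitochondrial ribosomal protein genes, 13.4% for respiratory chain genes and 15.3% for spliceosome genes. Their median control signals were 9.40, 10.92 and 10.11, and 31.3% of the brightest 3955 genes were called. None of 41 cytosolic ribosomal protein genes, whose median control signal was 12.9, passed in limma, under any of the 4 scalings, and 7 of them had groups that did not overlap, against 32.8% of all genes tested. At an unadjusted p under 0.05 there was 1. Of 76 mitochondrial ribosomal protein genes, 6 rose and 5 fell, with 8 and 3 on the deposited values, 10 and 3 on centred arrays and 5 and 3 without control replicate 3 or siRNA replicate 3. Among them MRPS33, with a single probe set, read 9.94, 10.01 and 9.98 on the controls and 7.91, 7.53 and 7.83 after knockdown, a fall of 2.22 ± 0.08 or 4.66-fold (limma, adjusted p = 1.5e-11). The next largest change in that list was a rise of 0.55, for MRPL50. Of 67 respiratory chain genes 9 fell and 0 rose (limma; 3 rose at an unadjusted p under 0.05). The split was 4 and 1 on the deposited values, 3 and 1 on centred arrays, 5 and 1 without siRNA replicate 2 and 3 and 0 when any 1 control array was left out. NDUFB2 fell by 0.41 and SDHC by 0.34. Of 59 spliceosome genes 8 fell and 1 rose, with 3 and 1 on the deposited values, 1 and 1 on centred arrays and 4 and 1 when any 1 control array was left out. Of 28 proteasome genes, 2 rose and 2 fell (0 fell on centred arrays; limma). Of 44 nuclear receptor and circadian genes 2 rose and 1 fell, with 2 and 3 without siRNA replicate 1 and 4 and 2 without siRNA replicate 2. Of 41 ribosome biogenesis genes 4 rose and 2 fell, with UBTF, a factor of RNA polymerase I, lower by 0.54 and HEATR1 higher by 0.41, with 8 rises on the deposited values and 10 on centred arrays. Of 53 nuclear import and pore genes, 9 rose and 10 fell, with 5 falls on the deposited values and 3 on centred arrays. The called share was 35.8% at a median control signal of 9.14, against 31.3% of the brightest 3955 genes. Among the called members were KPNA5 (0.73), NUP153 (-0.72) and the tRNA exporter gene XPOT (0.50). The mean of the NUP153 probe sets, -0.20, did not pass (limma, adjusted p = 0.0651).

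The called share was 20.9% in the chemokine, cytokine and NF-kB list and 17% in the interferon-stimulated list, against 16.4% of all genes tested. In both lists more of the called members were higher than lower. Of 43 chemokine, cytokine and NF-kB genes, 7 rose and 2 fell. The neutrophil chemokine gene CXCL6 read 5.14, 5.07 and 5.21 on the controls and 6.35, 6.93 and 6.41 after knockdown, and CXCL1 read 7.26, 7.43 and 7.53 against 7.97, 8.22 and 7.91. ICAM1, the adhesion molecule for leukocytes, rose by 0.58 and CCL20 by 0.49, while TNFAIP2 fell by 0.56. In CXCL6 and CXCL1 the groups were apart and siRNA array 2 was the highest. Without siRNA replicate 2 the falls were 5, and on centred arrays the rises were 11. Of 47 interferon-stimulated genes 6 rose and 2 fell, with PSMB8 higher by 0.53, ISG20 by 0.48 and IFIT1 lower by 0.65, and 3 rose and 1 fell without control replicate 1.

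Called markers of other lineages went in both directions, and the fibrinogen chains rose together. Of 31 hepatocyte genes, 3 rose and 4 fell, and the 3 that rose were the fibrinogen chains. There were 2 falls without control replicate 1 or 3 and 1 without siRNA replicate 1 or on centred arrays. FGG read 10.47, 10.46 and 10.59 on the controls and 11.54, 11.85 and 11.40 after knockdown, a rise of 1.09 ± 0.10 (limma, adjusted p = 1.91e-06). FGA read 7.39, 7.32 and 7.49 against 8.28, 9.23 and 7.89, and FGB 11.42, 11.46 and 11.53 against 11.89, 11.87 and 11.81. Albumin itself stayed at 2.85 to 3.53 on all 6 arrays. Of 24 mesenchymal genes 3 rose and 2 fell (1 without control replicate 2 or 3), and S100A4, a calcium binding protein gene of motile cells, read 8.03, 8.24 and 8.33 against 6.33, 6.82 and 6.50, a fall of 1.65 ± 0.11 (limma, adjusted p = 3.48e-08). Among 54 SOX, HOX and FOX genes 6 rose (3 without siRNA replicate 1) and 4 fell. The stem cell factor gene SOX2 rose from 5.45, 5.09 and 5.09 to 6.37, 6.89 and 6.37, or 2.51-fold, though none of its 3 other probe sets passed. Leukocyte, endothelial and erythroid lists held 1 rise, 1 fall and 0 calls in limma, of 12, 11 and 7 genes, and the erythroid list also held 0 at an unadjusted p under 0.05. The leukocyte rise and the endothelial fall were each lost when single arrays were left out, siRNA replicate 2 among them.

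Gene families defined by symbol alone gave a wider view. Of 466 ZNF zinc finger genes, 52 rose and 20 fell, with 61 and 14 on the deposited values and 75 and 10 on centred arrays. Without control replicate 2 there were 34 rises, and without control replicate 3 there were 12 falls. ZNF367 read 7.85, 7.95 and 7.83 on the controls and 9.21, 8.90 and 9.47 after knockdown, ZNF138 rose by 1.03 and ZNF680 by 0.84, while ZNF805 fell by 1.12 with both other probe sets. Of 376 solute carrier genes 39 rose and 31 fell, with 40 and 19 on the deposited values and 55 and 14 on centred arrays. Of 213 TMEM genes, 24 rose and 25 fell (15 fell without control replicate 2, 16 without control replicate 3 and 12 on centred arrays), with TMEM45A lower by 1.02 and TMEM41B, of autophagosome formation, by 0.90. Of 1661 long non-coding RNA genes 31 rose and 48 fell, 4.76% in all, where the median control signal was 4.33, and 28 fell without siRNA replicate 2, 27 without control replicate 2 and 31 without control replicate 3. MIR100HG rose by 1.09 and SBF2-AS1 fell by 1.09. Of 82 olfactory receptor genes, which these cells are not known to use, 1 fell, a share of 1.22%, and 0 to 3 fell with 1 array left out.

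**Figure D5:**
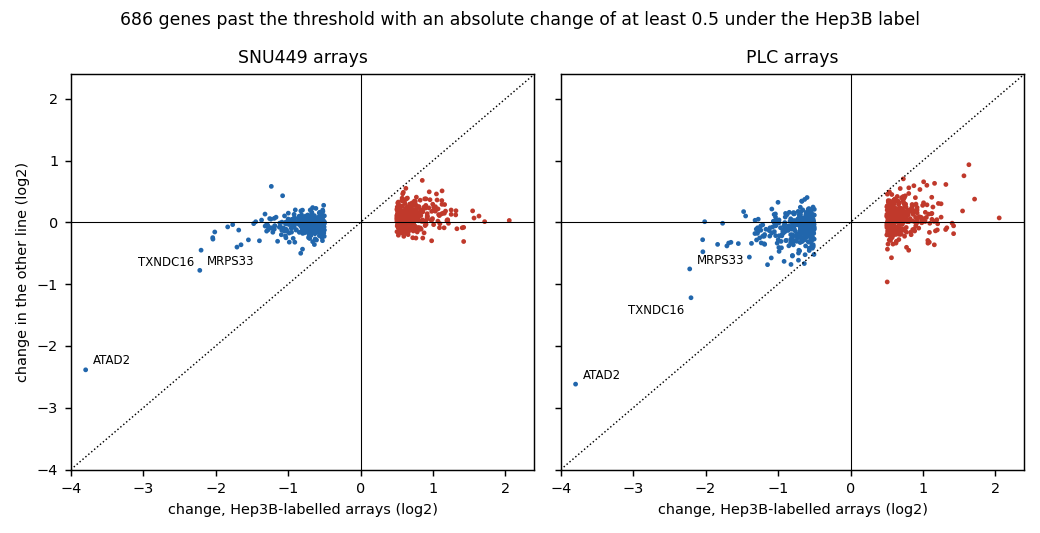
Log2 change on the SNU449 arrays (left) and PLC arrays (right) on the y axis against the change on the Hep3B-labelled arrays on the x axis, for the 686 genes that were called with an absolute change of at least 0.5 under the Hep3B label, red higher and blue lower there. The dotted line marks equal change, and 71.7% of the points in SNU449 and 69.8% in PLC lie between it and the horizontal line at 0, while 28.3% and 29.9% have the opposite sign and 2 points in PLC exceed their Hep3B-labelled change. ATAD2, MRPS33 and TXNDC16, which are named in the plot, fell under every label.

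Many genes changed differently under the Hep3B label than under the other labels. The change was compared gene by gene with the mean change of SNU449 and PLC, each taken against its own controls, in an interaction contrast of the same limma fit. It differed for 1776 genes (8.98%), 964 (4.87%) more positive and 812 (4.11%) more negative under the Hep3B label. Against SNU449 alone 1214 genes (6.14%) differed and against PLC alone 1918 (9.70%). On the PLC siRNA arrays the 5' minus 3' signal was -1.15, -0.45 and -1.09, against -0.59 to -0.44 on the PLC controls, and with it as a covariate the last count was 1224. In SNU449 and PLC themselves 51 (0.258%) and 904 (4.57%) genes were called. ATAD2 itself fell less in SNU449 than under the Hep3B label. Whether the depth of the knockdown bears on these counts was not tested. Of the 3247 genes called under the Hep3B label, 1617 (49.8%) differed from the others, all 1617 in the direction of their own change, and of the 97 with an absolute change of at least 1 log2 unit 95 (97.9%) did. These shares rest on the same Hep3B-labelled arrays that gave the calls.

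Some of the largest differences belonged to genes with small changes elsewhere. ADAMTS3 rose by 2.05 under the Hep3B label, with changes of 0.03 in SNU449 and 0.07 in PLC, a difference of 2.001 from their mean (limma, adjusted p = 4.71e-08). For SLC39A10 the changes were -2.04, -0.25 and -0.28, for KRT7 -1.08, 0.43 and -0.08, and for VEGFA -0.99, 0.04 and 0.04. The difference was past the threshold for each of them. Among the replication genes, 23 of 63 fell further under the Hep3B label than the mean of the others (limma), and 0 and 4 of them were called lower in SNU449 and PLC. UHRF1 changed by -0.07 in SNU449 and 0.15 in PLC (difference -0.83). For immediate early genes 10 of 27 differed downward, for sterol genes 8 of 21 upward and for hepatocyte genes 9 of 31 upward, although 16 of the hepatocyte genes were called lower in PLC.

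In sign, the other labels shared the direction more often than over all genes. Of the 1717 genes that rose under the Hep3B label, 69.5% had a positive change in SNU449 and 66.7% in PLC, where 43.2% and 53.5% of all genes did. Of the 1530 that fell, 71.3% and 57.7% had a negative change, against 56.8% and 46.4% of all genes. The median change of the risers was 0.05 in SNU449 and 0.06 in PLC, and that of the fallers -0.05 and -0.03, against 0.34 and -0.33 under the Hep3B label. These shares are descriptions without a test, over genes chosen by their change in the Hep3B-labelled arrays. Of the risers 18 were called higher in SNU449 and 128 in PLC, and of the fallers 11 and 112 were called lower, while 1 gene was called in the opposite direction in SNU449 and 32 in PLC.

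Under all 3 labels 15 genes were called, of which 7 rose and 7 fell throughout. Besides ATAD2, MRPS33 changed by -2.22, -0.78 and -0.75 under the Hep3B, SNU449 and PLC labels, TXNDC16 by -2.20, -0.45 and -1.22, the vasoconstrictor peptide gene EDN1 by -0.83, -0.50 and -0.33, IGFBP3 by -0.64, -0.36 and -0.67, and ZIC2 by -0.80, -0.43 and -0.54. On the Hep3B-labelled arrays TXNDC16 read 7.43, 7.57 and 7.65 on the controls and 5.24, 5.24 and 5.55 after knockdown. C19orf12 rose by 0.96, 0.37 and 0.53, DENND5B by 0.76, 0.34 and 0.43, and REV3L, the catalytic subunit gene of the translesion polymerase zeta, by 0.74, 0.34 and 0.30. For LAMC1 (0.41, 0.34 and 0.39) and ITPRIPL2 (0.39, 0.40 and 0.30) the changes lay close together, and the difference of the Hep3B label from the mean of the others was 0.04 for each and did not pass (limma, adjusted p = 0.789 and 0.813).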

How the data were processed

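Total RNA of 18 samples was labelled with biotin and hybridised to arrays of 54675 probe sets, and the 6 Hep3B-labelled arrays were analysed here. The authors deposited log2 values, read from their range of 1.33 to 14.0. The submitters' processing notes name limma, and how the signals were summarised and normalized is not given in the sources used here. Sorted values differed by at most 0.155 between arrays with one line label and by at most 1.51 over all arrays, and the values were quantile normalized over all 18 arrays. Of the probe sets, 41097 named 1 gene, 1801 several and 11777 none in the platform table, and 41043 symbols were updated through RefSeq. Each of the 19775 genes was read from its probe set with the highest mean signal over all arrays. No filter on dim genes was applied and detection calls were not used here.

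The 6 group means were fitted in limma 3.58.1 under R 4.3.3 (lmFit, eBayes, 12 residual and 4.01 prior degrees of freedom). Each gene had a single spread, shared by all 18 arrays of the 3 labels. Genes were called at a Benjamini-Hochberg adjusted p under 0.05 over all genes. The difference between labels was an interaction contrast of that fit. Simulated data had independent normal noise and no change under the other labels. There 79% of changes of 0.5 and 96% of changes of 1.0 were recovered, with 9 false calls. Smaller changes, correlated genes and an array of lower weight were not simulated. The labels call the replicates biological and do not say whether they were separate cultures, so p-values measure the spread between these samples, which may be technical. The number of arrays limits the precision.

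The members and the 58 gene lists were chosen with earlier results of these data known. Genes named are ATAD2, the 12 largest rises and falls with a second probe set called the same way, ranks 11 to 20 in each direction, up to 5 called members of every list by size of change, the 8 largest differences from the other labels in each direction, up to 6 genes in each direction called the same way under all labels, and markers. The largest rises and falls and ranks 11 to 20 were taken only from called genes whose groups did not overlap. Other named genes are said to have been chosen after their values were seen. Promoters came from RefSeq on GRCh38.p14, matched by symbol for 15384 genes. Motifs were also searched for other lists. The sterol element was in 1 of 19 promoters of the sterol list, and the NF-kB motif in 15 of 33 of the chemokine list. Over all genes tested the shares were 1.09% and 3.54%. Alternatives covered scaling, dim genes, probe set choice, the fit, the threshold, the replicate number and each array left out.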

Additional observations from a re-analysis of the deposited data

Results flagged for a closer look

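For 16 genes the difference between the change under the Hep3B label and the mean change under SNU449 and PLC was singled out as among the 8 largest in either direction past the threshold of that interaction contrast in limma. On the positive side the differences were 2.0 for the procollagen protease gene ADAMTS3, 1.61 for the carboxypeptidase gene CPA4, 1.55 for the chemokine gene CXCL6 and 1.52 for TECPR2, which acts in autophagy. They were 1.45 for the urea transporter gene SLC14A1, 1.43 for SOX2, 1.36 for the cell cycle regulator gene RGCC and 1.31 for PRSS35. On the negative side they were -1.94 for TMF1, whose probe sets disagree, -1.78 for the zinc importer gene SLC39A10, -1.74 for ASZ1 and -1.66 for LINC00621. EGR1 differed by -1.55, SPIN4 by -1.50, the mitochondrial ribosomal protein gene MRPS33 by -1.45 and the kinase gene FRK by -1.45. MRPS33 was lower under all 3 labels, so its difference is one of size.

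Outside the gene table, 521 of 13578 probe sets without a single gene passed the threshold under the Hep3B label when each probe set was tested by itself, 283 higher and 238 lower. Over all 54675 probe sets 4844 (8.86%) did.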

How the results depend on the processing

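The number of genes called under the Hep3B label was 3247 and ran from 1980 at an adjusted p under 0.01 to 4026 with array weights. It was 2430 with the line fitted by itself, a fit that gives no difference between labels. Leaving out 1 array gave 2355 to 2976 genes. For the difference from the mean of the other labels the count of 1776 became 904 at 0.01, and 1281 to 1765 without 1 array. Against SNU449 alone the 1214 genes became 563 at 0.01, 743 with the replicate block, 2121 with array weights and 829 to 1295 without 1 array. Against PLC alone the 1918 genes became 752 at 0.01, 1224 with the 5' minus 3' signal as a covariate and 1263 to 1799 without 1 array, lowest without control replicate 2. Beyond the stricter threshold and the smaller number of arrays, the cause was not tested.

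The replicate numbers did not pair the Hep3B-labelled arrays. For PLC the same-numbered arrays correlated at 0.09, 0.06 and 0.08 and the others at -0.08 to 0.003. For SNU449 the same-numbered arrays gave 0.04, -0.12 and 0.05. Deviations of same-numbered Hep3B-labelled arrays correlated at 0.02, -0.04 and -0.001, and the fit with the replicate number as a block called 2651 genes, 1304 for the difference from the other labels and 1280 for that from PLC. Of 288 named genes that were called, 215 kept their call and direction under every alternative, 36 lost it without at least 1 of the 6 arrays, and ASPH reversed to 0.0626 when all its probe sets were averaged. With 3 arrays a group, an exact permutation test of 1 gene could not go below p = 0.10, two-sided.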

Other observations

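Protein-coding genes carried most of the response. Of 16520 tested, 1653 rose and 1443 fell in limma (18.7%), whereas 4.44% of 2657 non-coding RNA genes and 6.38% of 423 transcribed pseudogenes were called. The median control signal of these classes was 6.66, 4.33 and 4.71, and the share called rose with signal over all genes.

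The genes that rose were longer than those that fell. Their median length was 37.5 kb over 1716 genes, against 29.8 kb over the 1530 that fell and 29.1 kb over 5569 genes with a mean signal of at least 6.86 that were not called. This is a description of the lists without a test, and their spread overlaps widely, with quartiles of 15.5 and 86.9 kb for the rises and 12.04 and 69.97 kb for the falls.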
